A study of Homo sapiens with 4 samples.

Results

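The baseline transcriptomes of Huh7 and Huh1, established human hepatocellular carcinoma cell lines, were compared under a negative control siRNA. RNA sequencing had been applied to both lines after transfection with the control siRNA or with an siRNA against ODC1, the gene of ornithine decarboxylase. Each combination of line and siRNA is 1 library, 4 in all, so every cell in the comparison had been transfected and no untransfected library was used. The comparison rests on the 2 control siRNA libraries, and the 2 ODC1 siRNA libraries of the same lines serve as a check that the order of the lines is seen again in other libraries. Expression is given as RPKM, the number of reads scaled to transcript length and to library depth, for 18398 RefSeq transcripts in each library. Of these rows, 11896 reached at least 1 RPKM in either control library and were compared, and 2047 were at 0 in both. The filter ran between METTL12, with 1.0001 RPKM in Huh1 and 0.534 in Huh7, and RANBP17, with 0.998 RPKM in Huh1 and 0 in Huh7. A difference is log2(RPKM + 1) in Huh7 minus that in Huh1, so a positive value means higher in Huh7, and the added 1 shrinks the differences of weakly expressed genes. With 1 library a side there is no replicate check and no p-value. A gene is counted as higher in a line when it is at least 2-fold apart on that scale, which is a rule of size only. A gene that passed the filter through 1 line alone had to be higher there, so counts and medians over the compared members of a list are descriptions, and medians over all rows of a list are given where they differ by over 1.5 times. The libraries compare 1 culture of each line as far as the labels say.

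The liver tumour cell retains part of the program of the hepatocyte, the cell that secretes most plasma proteins, makes urea and bile acids and inactivates drugs and steroids. Hepatocyte nuclear factors maintain that program. Liver tumours often re-express fetal liver genes such as AFP and IGF2. NRF2, a transcription factor held in check by KEAP1, drives genes of glutathione synthesis, NADPH supply and carbonyl reduction. YAP with TEAD factors, and NF-kB, drive genes of the cytoskeleton and matrix and of chemokines.

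The reads implied by the steps between low values were 13384836 for Huh1 and 12197606 for Huh7 under control siRNA, and 11227128 and 10215332 under ODC1 siRNA. In the control libraries 1 read on a transcript of 2 kb was worth 0.0374 and 0.0410 RPKM, so a level under about 0.112 RPKM in Huh1 or 0.123 RPKM in Huh7 on such a transcript rests on fewer than 3 reads. FTL, the ferritin light chain, alone took 3.90% of the summed RPKM of the Huh1 control library and 0.817% of that of Huh7. The 10 most abundant rows took 11.04% and 6.27%. Of the 24 genes listed as defining hepatocytes, 23 had at least 1 RPKM in the Huh1 control library and 21 in that of Huh7, with summed levels of 11230 and 8201 RPKM. The targeted gene of the study, ODC1, stood at 103 RPKM in Huh1 and 167 in Huh7 under control siRNA, a difference of 0.69.

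Huh7 and Huh1 were at least 2-fold apart in 3239 of the 11896 genes (27.2%). Of these, 2028 genes were higher in Huh7 (17.0% of all compared) and 1211 were higher in Huh1 (10.2%), and 8657 were under 2-fold apart. These 2 shares are the background for each list count below. At least 4-fold differences numbered 624 and 422 in the same order, and at least 16-fold differences 91 and 94. The median difference over all genes compared was 0.14, and 62.6% of the 2-fold calls were higher in Huh7. Quantile normalization, which gives both libraries the same distribution, moved the median to 0 and this share to 52.2%. The share was 57.8% with upper quartile scaling and 62.0% after rescaling without the 100 most abundant genes. The size of the surplus of genes higher in Huh7 thus depends on the scaling. Under ODC1 siRNA the lines were at least 2-fold apart in 3225 of 11843 genes (27.2%). Of the control calls, 2765 were called in the same direction there, 85.4% of the control calls and 85.7% of the ODC1 siRNA calls. All 3239 kept their sign, and no gene was 2-fold apart in opposite directions. A direction kept under ODC1 siRNA is therefore not particular to any gene or list named below. The share of all genes whose levels did not overlap between the lines over the 4 libraries was not counted. Between the siRNAs, 9 of 10912 genes were 2-fold apart within Huh1 and 88 of 11416 within Huh7. Across the genes compared, a description with no test, Pearson's r of log2(RPKM + 1) was 0.793 between the lines (Spearman's rho 0.797), 0.995 between the Huh1 libraries (0.994) and 0.987 between the Huh7 libraries (0.985).

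**Figure D1:**
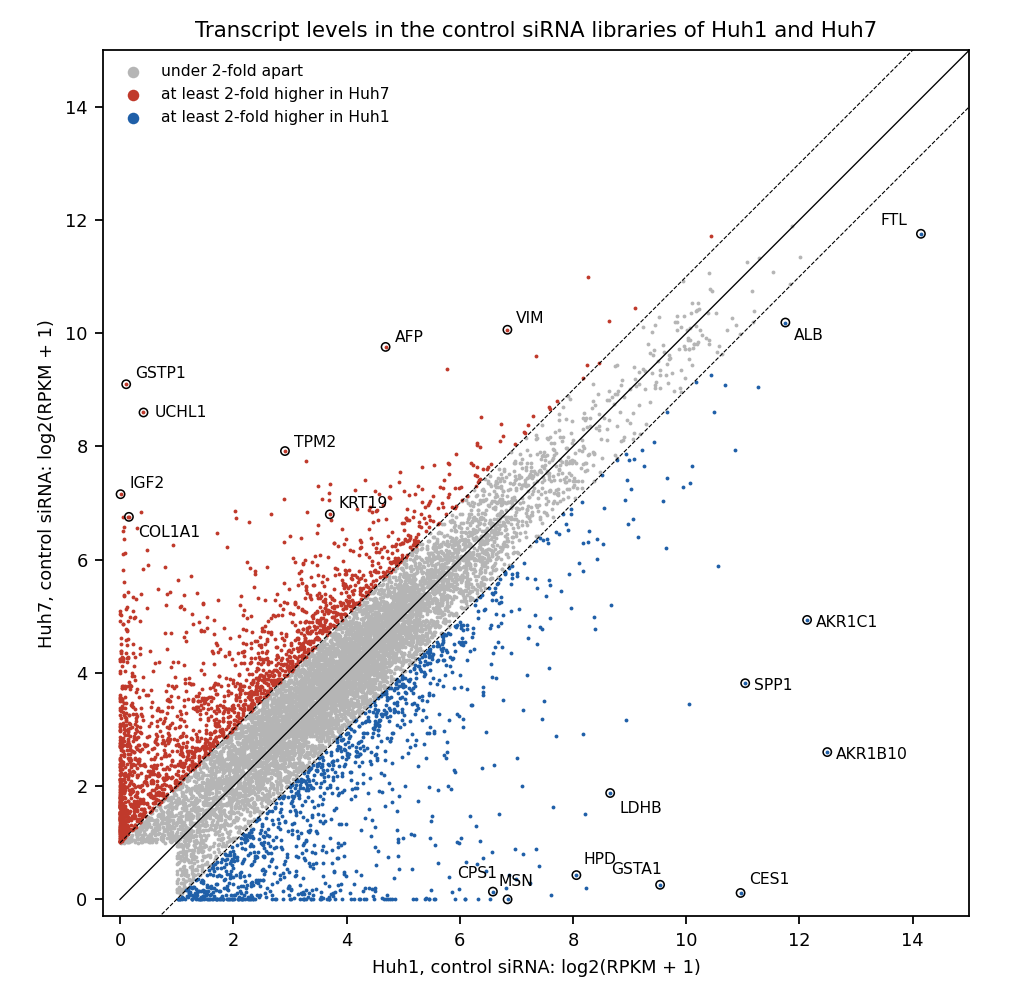
Each point is 1 of the genes compared, with log2(RPKM + 1) in Huh1 on the horizontal and in Huh7 on the vertical axis, both under control siRNA; the solid line marks equal levels and the dashed lines a 2-fold difference on that scale. CES1, AKR1B10 and GSTA1 lie far to the right near the Huh1 axis, GSTP1, UCHL1 and IGF2 lie high along the Huh7 axis, and FTL is the most abundant point in Huh1.

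Glutathione transferases, which join glutathione to reactive compounds, showed the widest opposition between the lines. GSTP1, the pi-class enzyme of most extrahepatic tissues, stood at 0.07799 RPKM in Huh1 under control siRNA, 0 in Huh1 under ODC1 siRNA, 547 in Huh7 under control siRNA and 503 in Huh7 under ODC1 siRNA. It was thus near 0 in both Huh1 libraries and among the abundant transcripts in both Huh7 libraries, and its difference of 8.99 was the largest in favour of Huh7. GSTA1, the alpha-class enzyme of adult hepatocytes, had the reverse pattern at 743 RPKM in Huh1 under control siRNA, 629.6 in Huh1 under ODC1 siRNA, 0.195 in Huh7 under control siRNA and 0.505 in Huh7 under ODC1 siRNA, a difference of -9.28. Its close copy GSTA2 stood at 138 RPKM in Huh1 and 0.752 in Huh7, and reads of the 2 copies may have been shared between them. The mu-class genes GSTM1 (42.1 RPKM in Huh7 and 0.838 in Huh1) and GSTM2 (9.25 RPKM in Huh7 and 1.51 in Huh1) and the omega-class GSTO2 (7.63 RPKM in Huh7 and 0.7001 in Huh1) were also higher in Huh7, whereas the membrane-bound MGST1 was higher in Huh1 (495 and 168 RPKM in Huh1 and Huh7). Of 15 members compared, 4 were higher in Huh7 and 6 in Huh1, with a median of -0.52, or -0.34 over all 19 rows.

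The 250 bases before the annotated starts of GSTP1 (chr11:67583562-67583811, plus strand) and GSTA1 (chr6:52803817-52804066, minus strand; both RefSeq, GRCh38.p14) are shown because this pair has the most opposed levels of the family. Each is written 5′ to 3′ along its gene, and capitals mark the CG dinucleotides, the sites at which DNA can be methylated.
GSTP1: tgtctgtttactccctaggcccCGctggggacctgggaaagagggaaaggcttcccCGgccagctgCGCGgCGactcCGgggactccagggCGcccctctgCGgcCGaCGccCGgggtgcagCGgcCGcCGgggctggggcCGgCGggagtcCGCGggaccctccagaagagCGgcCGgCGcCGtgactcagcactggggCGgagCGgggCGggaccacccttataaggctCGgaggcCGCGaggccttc
GSTA1: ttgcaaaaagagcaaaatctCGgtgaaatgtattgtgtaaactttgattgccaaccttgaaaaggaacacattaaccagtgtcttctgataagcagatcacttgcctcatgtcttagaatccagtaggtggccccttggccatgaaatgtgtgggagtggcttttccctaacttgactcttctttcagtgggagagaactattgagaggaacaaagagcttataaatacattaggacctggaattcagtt
The GSTP1 stretch holds 28 CG dinucleotides and that of GSTA1 holds 1. Over the 9772 compared genes whose promoter was in the RefSeq table, the median was 21. It was 17.5 for the 70 such genes at least 16-fold higher in Huh7 and 5 for the 69 at least 16-fold higher in Huh1. The GSTP1 stretch also holds the antioxidant response element core TGACNNNGC, where N is any base and either strand was searched, starting 66 bases before the start. Methylation and factor binding were not measured, so these counts describe the sequences only.

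Aldo-keto reductases, NADPH-dependent enzymes that reduce aldehydes, ketones and steroids, had a median difference of -2.94. Of 14 aldo-keto and carbonyl reductases compared, 11 were higher in Huh1 and none in Huh7, against 10.2% and 17.0% over all genes. AKR1B10, an enzyme of retinal and lipid aldehydes that is a marker of liver tumours, stood at 5758 and 4489 RPKM in the Huh1 libraries and 5.07 and 9.09 RPKM in the Huh7 libraries. It was the most abundant transcript of Huh1 after FTL. AKR1C1, a 20-alpha-hydroxysteroid dehydrogenase, stood at 4497 and 3275 RPKM in the Huh1 libraries and 29.6 and 43.9 RPKM in the Huh7 libraries, and the close copy AKR1C2 at 288 RPKM in Huh1 and 6.62 in Huh7. AKR1C3, which makes testosterone and prostaglandins, stood at 1054 and 833 RPKM in the Huh1 libraries and 9.95 and 7.81 RPKM in the Huh7 libraries. AKR1C4, the liver-specific member, stood at 161 and 135 RPKM in the Huh1 libraries and 0.843 and 0.972 RPKM in the Huh7 libraries. AKR1B15, a neighbour and near copy of AKR1B10, stood at 299 RPKM in Huh1 and 0.151 in Huh7, and its reads may in part be those of AKR1B10. For AKR1B10, AKR1C1, AKR1C3 and AKR1C4 both Huh1 libraries were far above both Huh7 libraries. Every gene at least 2-fold apart under control siRNA likewise kept its direction under ODC1 siRNA.

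Genes of the NRF2 and glutathione system shared this direction. Of 21 compared, 14 were higher in Huh1 and 1 in Huh7, with a median of -2.35, and under ODC1 siRNA these counts were 13 and 1 with a median of -2.27. HMOX1, heme oxygenase 1, stood at 206 and 166 RPKM in the Huh1 libraries and 6.39 and 6.03 RPKM in the Huh7 libraries. GCLM, the regulatory subunit of glutathione synthesis, stood at 330.0 and 257 RPKM in the Huh1 libraries and 30.9 and 21.3 RPKM in the Huh7 libraries. SLC7A11, the cystine importer, stood at 53.05 RPKM in Huh1 and 4.65 in Huh7. The pentose phosphate enzyme PGD, which supplies NADPH, was at 989 RPKM in Huh1 and 155 in Huh7. TXN, thioredoxin, stood at 1446 RPKM in Huh1 and 390.1 in Huh7, and OSGIN1, an oxidative stress-induced growth inhibitor, at 83.7 RPKM in Huh1 and 12.5 in Huh7. The ferritin subunits belong to this list and to that of iron handling. FTL stood at 18122 and 17389 RPKM in the Huh1 libraries and 3457 and 3423 RPKM in the Huh7 libraries, and FTH1, the heavy chain, at 3628 and 3745 RPKM in the Huh1 libraries and 1871 and 2078 RPKM in the Huh7 libraries, so both were higher in both Huh1 libraries, though FTH1 at -0.95 was just under 2-fold. NFE2L2 and KEAP1, the genes of NRF2 and of its inhibitor, were chosen here after their values were seen. They differed by less than 2-fold, at 129 RPKM in Huh1 and 97.8 in Huh7 for NFE2L2 and 55.1 RPKM in Huh1 and 29.3 in Huh7 for KEAP1.

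In the 250 bases before the start, the TGACNNNGC core was present in 2 of the 13 NRF2 list members with a promoter in the table, and in 2 of 11 aldo-keto and carbonyl reductases. Both members of the NRF2 list, GCLM (chr1:93909440-93909480, minus strand) and PGD (chr1:10398847-10398887, plus strand), are shown with the core in capitals as it reads along the gene. In each the core lies on the opposite strand.
GCLM: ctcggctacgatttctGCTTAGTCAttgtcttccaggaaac
PGD: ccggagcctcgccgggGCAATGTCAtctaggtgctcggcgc
These cores start 34 and 201 bases before the annotated start. The core was found in 11.03% of all 27305 promoters of the table, in 13.5% of the genes higher in Huh1 and in 11.3% of those higher in Huh7, so its share differed little between these sets. It was present in 5 of 17 glutathione transferase promoters, whose family members share sequence. The core takes in the AP-1 word TGACTCA where GC follows it. AP-1 and HNF1 words were looked at as well and are not reported.

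**Figure D2:**
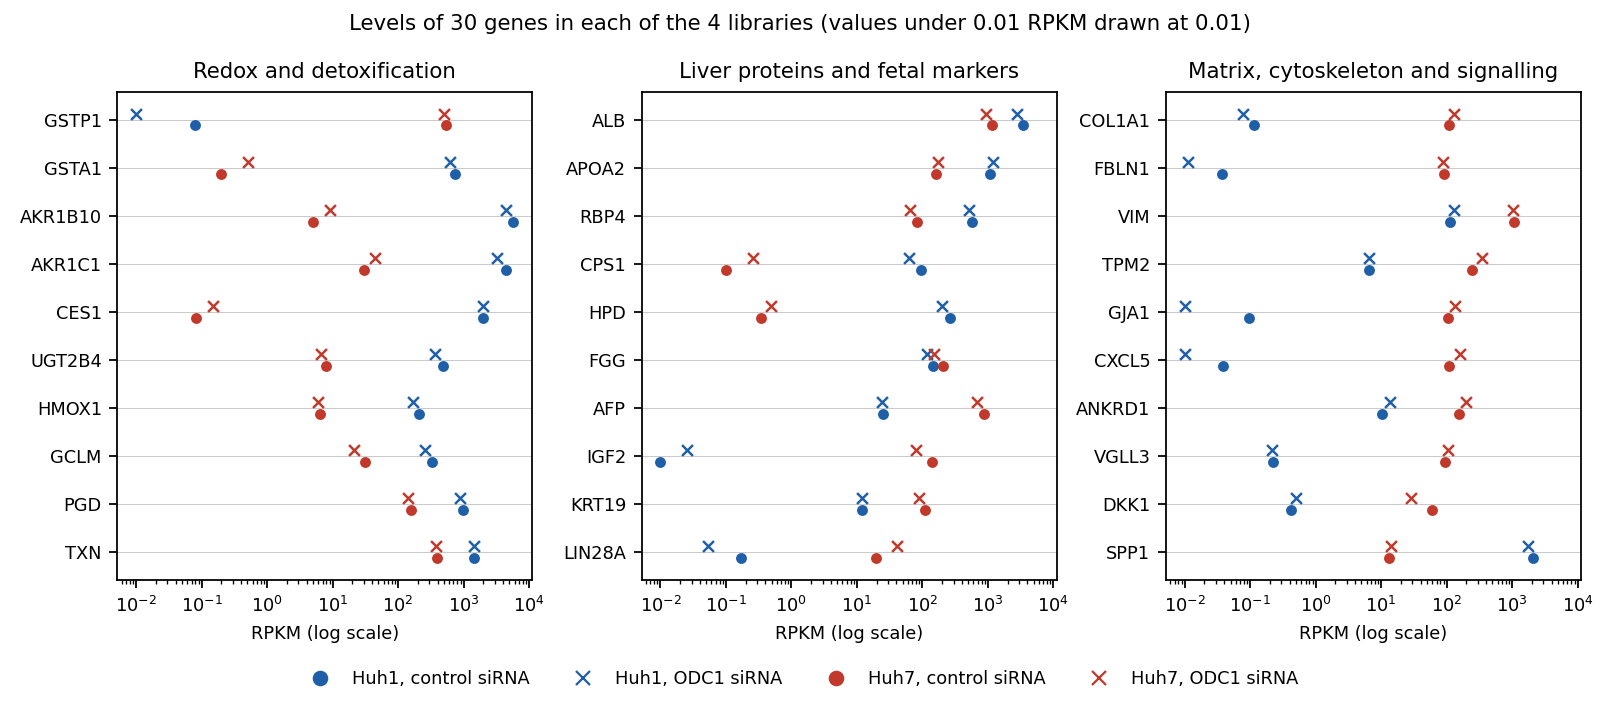
Each row is a gene, the horizontal axis is RPKM on a log scale, blue marks the Huh1 libraries, red those of Huh7, dots control siRNA and crosses ODC1 siRNA. For all 30 genes both marks of a line lie to one side of both marks of the other, and FGG, with 117 to 209 RPKM over the 4 libraries, has the narrowest gap. The 30 genes are a selection, and the share of all genes compared that part in this way was not counted.

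Drug-metabolizing enzymes were higher in Huh1 nearly throughout. Among cytochromes P450 and UDP-glucuronosyltransferases 24 were compared, of which all 24 reached 1 RPKM in Huh1 and 13 in Huh7. Of the 24, 21 were higher in Huh1 and none in Huh7, with a median of -2.26, or -1.55 over all 34 rows. Their summed level was 1212 RPKM in Huh1 and 84.49 RPKM in Huh7. UGT2B4, which conjugates bile acids, stood at 492 and 362 RPKM in the Huh1 libraries and 7.99 and 6.66 RPKM in the Huh7 libraries. UGT1A6, which conjugates phenols and shares exons with the other UGT1A transcripts, stood at 198 RPKM in Huh1 and 2.11 in Huh7. CYP2B6, a drug-inducible P450, stood at 54.9 and 46.5 RPKM in the Huh1 libraries and 0.315 and 0.1796 RPKM in the Huh7 libraries. CYP24A1, which inactivates vitamin D, stood at 45.5 RPKM in Huh1 and was listed at 0 in Huh7. The fatty acid hydroxylases CYP4F3 and CYP4F11 stood at 46.3 and 62.6 RPKM in Huh1 against 0.9503 and 0.134 in Huh7. POR, the reductase that gives all microsomal P450s their electrons, was at 99.3 RPKM in Huh1 and 31.7 in Huh7.

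CES1, the main carboxylesterase of human liver, had the largest difference of all genes in either direction. It stood at 1991 RPKM in Huh1 under control siRNA, 1962 in Huh1 under ODC1 siRNA, 0.0817 in Huh7 under control siRNA and 0.146 in Huh7 under ODC1 siRNA, a difference of -10.85. It belongs to a list of sulfotransferases, alcohol and aldehyde dehydrogenases and related enzymes, of which 17 of 25 were higher in Huh1 and 1 in Huh7, with a median of -1.61. Of the 25, 23 reached 1 RPKM in Huh1 and 11 in Huh7, and the median over all 29 rows was -1.42. ALDH3A1, an aldehyde dehydrogenase, was at 87.8 RPKM in Huh1 and 0.415 in Huh7, and ALDH1L1, of folate metabolism, at 26.2 RPKM in Huh1 and 0 in Huh7. SULT1E1, estrogen sulfotransferase, was at 14.5 RPKM in Huh1 and 0.371 in Huh7. The exception was SULT1C4, a sulfotransferase of fetal tissues, with 0.0449 and 0.0878 RPKM in the Huh1 libraries and 40.1 and 38.4 RPKM in the Huh7 libraries. ALDH1A1, retinal dehydrogenase, was abundant in both, at 1650.3 and 539 RPKM in Huh1 and Huh7. Bile acid and transporter genes had a median of -0.83, or -0.08 over all 30 rows. Of the 18 compared 3 were higher in Huh7 and 8 in Huh1. These included ABCC2, the canalicular conjugate pump (408 and 35.8 RPKM), ABCC3, its basolateral relative (48.04 and 2.81 RPKM), and BAAT, which joins bile acids to amino acids (53.4 and 5.89 RPKM), each in Huh1 and Huh7.

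Hepatocyte transcription factors differed in both directions: 4 of 23 were higher in Huh7, 4 in Huh1 and 15 were under 2-fold apart, with a median of -0.09, where 27.2% of all genes compared were at least 2-fold apart. HNF4A, the central hepatocyte nuclear receptor, stood at 86.1 and 79.3 RPKM in the Huh1 libraries and 55.4 and 42.3 RPKM in the Huh7 libraries, and CEBPA at 94.4 RPKM in Huh1 and 68.9 in Huh7. The ranges of the lines did not overlap for HNF4A, yet the difference of -0.63 stayed under 2-fold. Members that parted included PROX1, a factor of hepatoblasts, which was higher in Huh7, with 13.2 and 10.4 RPKM in the Huh1 libraries and 55.9 and 38.5 RPKM in the Huh7 libraries. NR1H4, the bile acid receptor FXR, and NR1I2, the xenobiotic receptor PXR, were higher in Huh1. NR1H4 stood at 41.9 and 35.7 RPKM in the Huh1 libraries and 6.65 and 6.59 RPKM in the Huh7 libraries. NR1I2 stood at 3.43 RPKM in Huh1 and was listed at 0 in Huh7. CEBPB was higher in Huh1 as well, at 31.2 and 7.54 RPKM in Huh1 and Huh7, and GATA6 higher in Huh7, at 1.24 and 7.39 RPKM in the same order.

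Secreted liver proteins were split. Of 26 carrier and acute phase proteins, 13 were higher in Huh1 and 5 in Huh7, with a median of -0.83, or -0.36 over all 33 rows. ALB, albumin, stood at 3447 and 2806 RPKM in the Huh1 libraries and 1166 and 920.4 RPKM in the Huh7 libraries. RBP4, which carries retinol, was at 569.7 RPKM in Huh1 and 83.2 in Huh7, CP, ceruloplasmin, at 164 RPKM in Huh1 and 21.9 in Huh7, and SERPINA1, alpha-1-antitrypsin, at 538 RPKM in Huh1 and 219 in Huh7. In the other direction TTR, transthyretin, was at 5.096 RPKM in Huh1 and 29.3 in Huh7 and HPX, hemopexin, at 3.54 RPKM in Huh1 and 33.4 in Huh7. TF, transferrin, was alike in both at 675 and 628 RPKM. Of 18 apolipoproteins and lipoprotein assembly genes, 6 were higher in Huh1 and 5 in Huh7. The median of this list was -0.67, or -0.06 over all 24 rows. APOA2 (1072 and 163 RPKM) and APOH (192 and 45.7 RPKM) were higher in Huh1, and APOC2 (12.1 and 161 RPKM) and APOE (84.5 and 193 RPKM) in Huh7, each given for Huh1 and then Huh7. APOB, the core protein of very low density lipoprotein, was at 217 RPKM in Huh1 and 130.2 in Huh7, under 2-fold apart.

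Coagulation genes had a positive median, 0.36, with 7 of 27 higher in Huh7 and 4 in Huh1, against 17.0% and 10.2% of all genes. The fibrinogen chains FGA, FGB and FGG were under 2-fold apart, at 108, 178 and 145 RPKM in Huh1 and 148, 195 and 209 in Huh7. A2M, alpha-2-macroglobulin, was at 1.397 RPKM in Huh1 and 51.1 in Huh7, and SERPIND1, heparin cofactor, at 26.2 RPKM in Huh1 and 135 in Huh7. F5, coagulation factor V, was at 25.9 RPKM in Huh1 and 3.16 in Huh7, and SERPINC1, antithrombin, at 6.92 RPKM in Huh1 and 0.0513 in Huh7. Complement genes had a median of -0.62, or -0.32 over all 28 rows, with 11 of 25 higher in Huh1 and 2 in Huh7. Those higher in Huh7 included C5, which starts the terminal pathway, at 20.2 RPKM in Huh1 and 122 in Huh7.

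Amino acid breakdown was higher in Huh1 for 13 of 32 genes and in Huh7 for 2, with a median of -0.73. CPS1, which starts the urea cycle, stood at 95.03 and 63.5 RPKM in the Huh1 libraries and 0.0996 and 0.257 RPKM in the Huh7 libraries. HPD, of tyrosine breakdown, stood at 266 and 198 RPKM in the Huh1 libraries and 0.346 and 0.482 RPKM in the Huh7 libraries. Both were thus near 0 in the Huh7 libraries and well expressed in those of Huh1. ASS1, argininosuccinate synthase, was at 28.7 RPKM in Huh1 and 1.95 in Huh7. GLDC, which cleaves glycine, was the opposite at 14.4 RPKM in Huh1 and 62.1 in Huh7. The asialoglycoprotein receptor subunits ASGR1 and ASGR2, which mark mature hepatocytes, were at 107 and 119 RPKM in Huh1 and 10.5 and 19.3 in Huh7. Over the 23 hepatocyte defining markers compared, 10 were higher in Huh1, 1 in Huh7 and 12 were under 2-fold apart, with a median of -0.73.

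**Figure D3:**
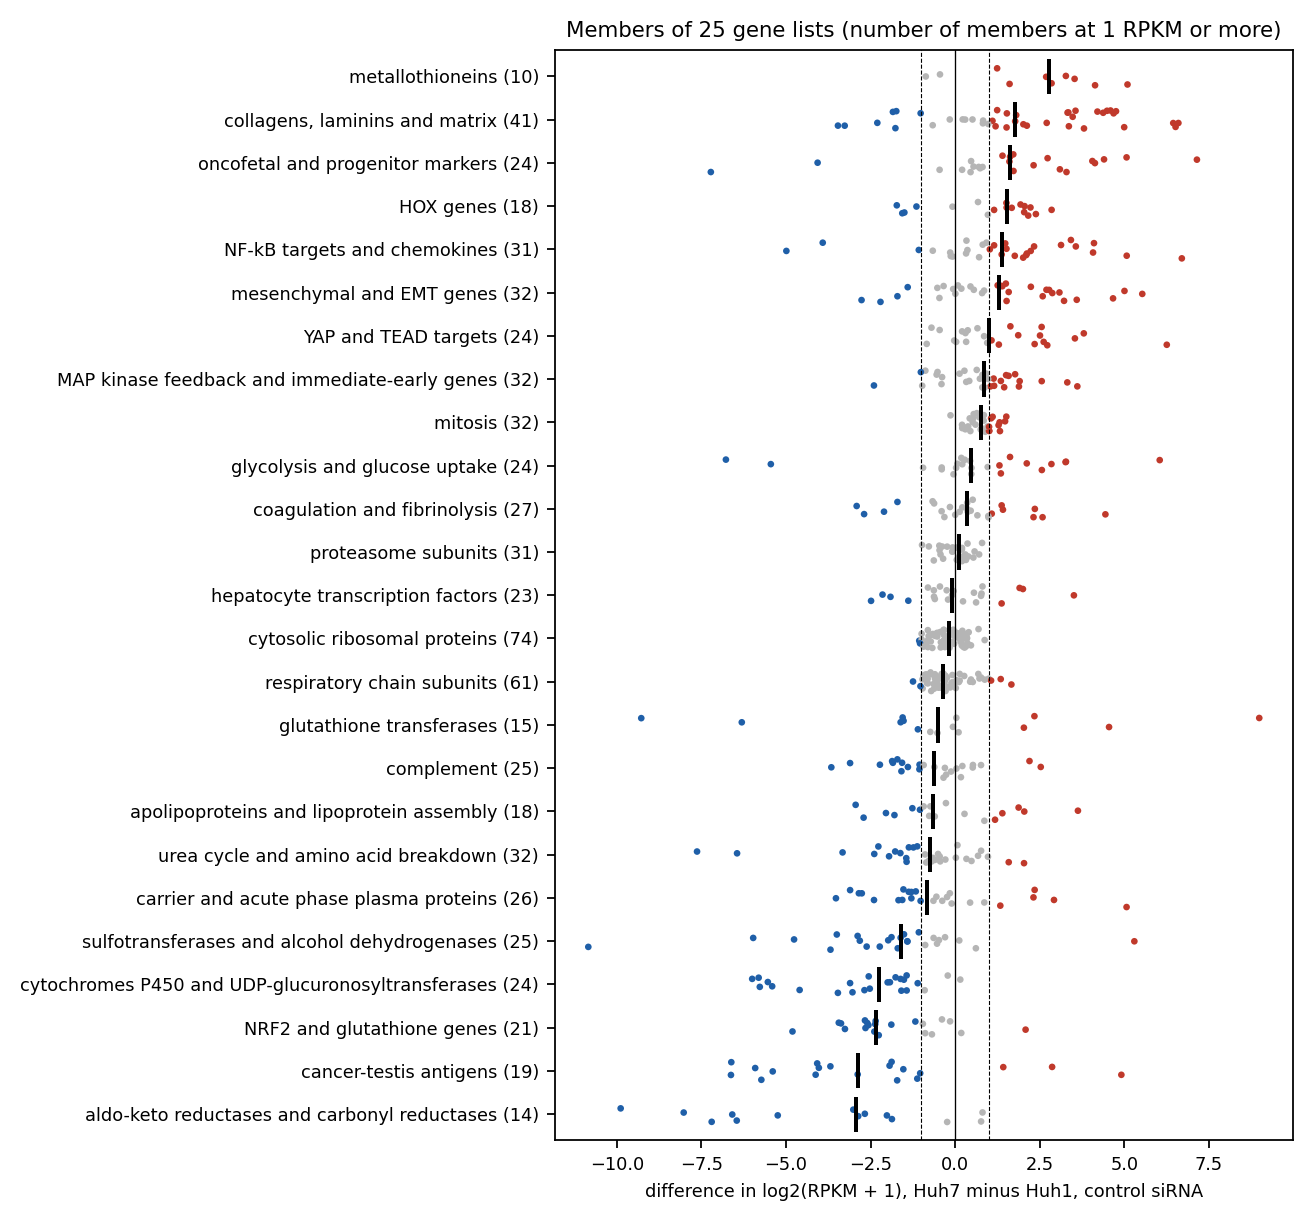
Each point is a list member with at least 1 RPKM in either control library, placed by its difference in log2(RPKM + 1), Huh7 minus Huh1; red and blue mark members at least 2-fold higher in Huh7 and Huh1, and black bars the medians. Medians run from -2.94 for aldo-keto and carbonyl reductases to 2.77 for metallothioneins, and ribosomal, respiratory chain and proteasome genes lie mostly between the dashed 2-fold lines.

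Fetal and progenitor genes were more often higher in Huh7: 14 of 24 were, against 2 higher in Huh1, with a median of 1.61, or 0.81 over all 29 rows. AFP, alpha-fetoprotein, stood at 24.8 RPKM in Huh1 under control siRNA, 23.8 in Huh1 under ODC1 siRNA, 865 in Huh7 under control siRNA and 687 in Huh7 under ODC1 siRNA. IGF2, the fetal growth factor, stood at 0.00615 and 0.0253 RPKM in the Huh1 libraries and 142 and 80.001 RPKM in the Huh7 libraries. Both were high in Huh7, and IGF2 in Huh1 did not exceed 0.0253 RPKM. LIN28A, an RNA-binding protein of pluripotent cells, stood at 0.169 and 0.0525 RPKM in the Huh1 libraries and 19.5 and 40.5 RPKM in the Huh7 libraries, PROM1, a progenitor surface protein, at 3.83 RPKM in Huh1 and 101 in Huh7, and KRT19, a keratin of bile duct and progenitor cells, at 12.04 and 11.99 RPKM in the Huh1 libraries and 110.5 and 88.5 RPKM in the Huh7 libraries. SOX9, a factor of ductal cells, was at 3.72 RPKM in Huh1 and 30.4 in Huh7, and LGR5, a WNT-responsive receptor, at 0.0649 RPKM in Huh1 and 9.43 in Huh7. GPC3, a glypican of liver tumours, was at 131 RPKM in Huh1 and 180.0 in Huh7 and EPCAM at 13.6 RPKM in Huh1 and 22.7 in Huh7, both under 2-fold apart. The members higher in Huh1 were SPP1, the secreted phosphoprotein osteopontin, at 2107 and 1769 RPKM in the Huh1 libraries and 13.1 and 14.1 RPKM in the Huh7 libraries, and GPC1, another glypican, at 82.9 RPKM in Huh1 and 4.003 in Huh7. UCHL1, a deubiquitinase of neurons and outside these lists, had the second largest difference in favour of Huh7, with 0.332 and 0.158 RPKM in the Huh1 libraries and 387 and 402 RPKM in the Huh7 libraries.

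Imprinted genes, of which 1 parental copy is normally silent, showed 6 of 16 higher in Huh7 and 3 in Huh1. The shares over all genes compared were 17.0% and 10.2%. Besides IGF2, PLAGL1 (0.103 and 18.1 RPKM), MEST (8.14 and 82.3 RPKM) and PEG10 (24.1 and 124 RPKM) were higher in Huh7. SNRPN, of the Prader-Willi locus, was at 24.2 RPKM in Huh1 and listed at 0 in Huh7, and SLC22A18 was at 31.7 and 3.01 RPKM. Values are for Huh1 and then Huh7.

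Cancer-testis antigens, X-linked for the most part and normally silent outside the germ line, were higher in Huh1 for 16 of 19 and in Huh7 for 3, with a median of -2.88. Of the 19, 16 reached 1 RPKM in Huh1 and 5 in Huh7, and the median over all 45 rows was -0.28. MAGEA3 and MAGEA6, near-identical copies, stood at 111 and 127 RPKM in Huh1 and 0.143 and 0.2897 in Huh7. MAGEA12 was at 59.2 and CTAG2 at 41.04 RPKM in Huh1, both listed at 0 in Huh7. The reverse held for MAGEB2, listed at 0 in Huh1 and at 29.1 RPKM in Huh7. HOX genes, which encode positional identity, were higher in Huh7 for 11 of 18 and in Huh1 for 4, with a median of 1.52. Of the 18, 15 reached 1 RPKM in Huh7 and 8 in Huh1, and the median over all 39 rows was 0.23. HOXC10 was at 0.3099 RPKM in Huh1 and 8.45 in Huh7 and HOXA10 at 2.62 RPKM in Huh1 and 9.39 in Huh7.

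Matrix and mesenchymal genes were mainly higher in Huh7. Of 41 collagens, laminins and other matrix genes, 26 were higher in Huh7 and 7 in Huh1, with a median of 1.77, or 0.90 over all 54 rows. Of the 41, 36 reached 1 RPKM in Huh7 and 21 in Huh1. COL1A1 and COL1A2, the chains of type I collagen, stood at 107 and 31.4 RPKM in Huh7 and 0.115 and 0.0138 in Huh1. FBLN1, fibulin 1, stood at 0.0374 and 0.0112 RPKM in the Huh1 libraries and 89.5 and 88.4 RPKM in the Huh7 libraries, and EFEMP1, fibulin 3, at 0.0483 and 0.0864 RPKM in the Huh1 libraries and 94.97 and 102 RPKM in the Huh7 libraries. LUM, lumican, was at 11.95 RPKM in Huh1 and 143 in Huh7, MATN3, matrilin 3, at 2.29 RPKM in Huh1 and 87.8 in Huh7, and SPARC, a collagen-binding glycoprotein, at 0.0476 and 0 RPKM in the Huh1 libraries and 47.5 and 55.1 RPKM in the Huh7 libraries. Among EMT genes 17 of 32 were higher in Huh7 and 4 in Huh1, with a median of 1.3, or 0.55 over all 43 rows. VIM, vimentin, stood at 114 and 130.3 RPKM in the Huh1 libraries and 1067 and 1045 RPKM in the Huh7 libraries. TPM2 and TPM4, tropomyosins of actin filaments, were at 241 and 169.5 RPKM in Huh7 and 6.53 and 19.1 in Huh1, and LGALS1, galectin 1, at 656 RPKM in Huh7 and 53.4 in Huh1. FN1, fibronectin, went the other way at 2461 and 2482 RPKM in the Huh1 libraries and 532 and 492 RPKM in the Huh7 libraries. Among the most abundant transcripts of Huh7, ACTB, beta-actin, was at 3372 RPKM and TMSB4X, thymosin beta 4, at 2029 RPKM, against 1378 and 308 in Huh1. MSN, moesin, which links actin to the membrane, was at 114 and 109.6 RPKM in the Huh1 libraries and listed at 0 in both Huh7 libraries.

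Epithelial genes were divided: 11 of 37 keratins and junction genes were higher in Huh7 and 10 in Huh1. KRT8 and KRT18, the keratins of hepatocytes, were at 1360.3 and 986 RPKM in Huh1 and 2133 and 1938 in Huh7. KRT7, a ductal keratin, was at 84.4 RPKM in Huh1 and 0.6596 in Huh7. Claudin 4 gene CLDN4 was at 42.7 RPKM in Huh1 and 0 in Huh7, while CLDN6, an embryonic claudin, was at 0.0545 and 0.06502 RPKM in the Huh1 libraries and 81.5 and 83.7 RPKM in the Huh7 libraries. Gap junction genes differed likewise, with GJA1 (connexin 43) at 0.0955 and 0 RPKM in the Huh1 libraries and 106 and 135 RPKM in the Huh7 libraries and GJB1 (connexin 32, the main one of hepatocytes) at 37.5 RPKM in Huh1 and 4.11 in Huh7.

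Markers of other cell types were present at varied levels. Of 13 stellate and fibroblast markers, 5 reached 1 RPKM in Huh7 (COL1A1, COL1A2, COL3A1, LUM and PDGFRA) and 1 of these, LUM, in Huh1. The 4 others passed the filter through Huh7 alone. The summed level over the 13 was 12.33 RPKM in Huh1 and 300.6 in Huh7, and the median difference was 0.43. Of 12 cholangiocyte markers compared 5 were higher in Huh7 and 3 in Huh1. The endothelial list had 2 of 11 members compared, EGFL7 (11.3 and 5.93 RPKM) and ESAM (0.1999 and 13.7 RPKM). In the blood and macrophage list 5 of 16 were compared, the highest being CD68 (23.3 and 3.71 RPKM) and LYZ (0.855 and 11.1 RPKM). Of 15 intestinal markers 7 were compared, with 3 higher in Huh1 and 2 in Huh7. LGALS4, galectin 4, stood at 167 and 168 RPKM in the Huh1 libraries and 0.513 and 0.459 RPKM in the Huh7 libraries, and CDH17 at 22.7 RPKM in Huh1 and 2.76 in Huh7. Those higher in Huh7 were TFF3 (0.0709 and 2.96 RPKM) and CDX2 (0.0357 and 1.22 RPKM). Of 5 neural markers compared, 4 were higher in Huh7 and 1 in Huh1. SNAP25 (1.58 and 10.3 RPKM), SYP (0.276 and 2.29 RPKM) and SYT1 (1.09 and 4.44 RPKM) were higher in Huh7. TUBB3 was at 12.3 RPKM in Huh1 and 103 in Huh7 and MAP2 at 60.9 RPKM in Huh1 and 1.03 in Huh7. Pairs are Huh1 and then Huh7. In RNA from a whole culture, a smaller share of cells with a transcript and less of it per cell cannot be told apart. The part of other cell types in the matrix and EMT counts was not tested.

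The list of YAP and TEAD targets also holds genes of the pathway itself, among them YAP1, WWTR1, TEAD2, LATS1, LATS2 and VGLL genes. It included no gene higher in Huh1 under control siRNA. Of 24 compared, 12 were higher in Huh7 and 12 under 2-fold apart, with a median of 1.01. Under ODC1 siRNA the counts were 13 higher in Huh7 and 1 in Huh1. ANKRD1, a stretch-responsive ankyrin repeat protein, stood at 10.3 and 13.6 RPKM in the Huh1 libraries and 157 and 199.7 RPKM in the Huh7 libraries, and CTGF, a secreted matricellular protein, at 14.2 and 16.6 RPKM in the Huh1 libraries and 92.4 and 99.6 RPKM in the Huh7 libraries. CYR61, its relative, stood at 8.83 and 13.8 RPKM in the Huh1 libraries and 113 and 251 RPKM in the Huh7 libraries. For these 3 genes both Huh7 libraries were above both Huh1 libraries, and all genes 2-fold apart under control siRNA kept their direction under ODC1 siRNA. VGLL3, a TEAD cofactor, stood at 0.226 and 0.217 RPKM in the Huh1 libraries and 92.8 and 106 RPKM in the Huh7 libraries, and CRIM1 at 8.67 RPKM in Huh1 and 62.9 in Huh7. YAP1, a member of this list named after its values were seen, was at 20.9 RPKM in Huh1 and 21.4 in Huh7.

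The TEAD-binding word CATTCC was searched on both strands of the 250 bases before the start. It was present in 6 of 20 list members with a promoter in the table, against 11.9% of all promoters and 9.31% of those of genes compared. ANKRD1 (chr10:90921286-90921323, minus strand) and CTGF (chr6:131951520-131951557, minus strand) are shown, since they have the largest differences among the 6; the word is in capitals and reads along the gene as its reverse complement.
ANKRD1: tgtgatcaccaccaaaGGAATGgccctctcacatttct
CTGF: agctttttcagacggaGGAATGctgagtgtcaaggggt
These words start 220 and 169 bases before the start, and the windows hold 2 and 3 of them. Genes higher in Huh7 held the word in 10.2% of promoters, as did genes higher in Huh1 (10.2%), and the genes at least 16-fold higher in 12 of 70 promoters for Huh7 (17.1%) and 7 of 69 for Huh1 (10.1%). A match is a description of the letters and not of binding.

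WNT-related genes were higher in Huh7 for 9 of 25 and in Huh1 for 2, against 17.0% and 10.2% of all genes compared. DKK1, a secreted WNT inhibitor, stood at 0.414 and 0.493 RPKM in the Huh1 libraries and 59.3 and 28.7 RPKM in the Huh7 libraries, and was thus lower under ODC1 siRNA than control siRNA in Huh7 but above both Huh1 libraries. TNFRSF19 was at 0.0942 RPKM in Huh1 and 21.5 in Huh7 and WNT5A, a ligand, the reverse at 41.3 RPKM in Huh1 and 0.0163 in Huh7. In the TGF-beta and BMP pathway 10 of 32 were higher in Huh7 and 3 in Huh1, against the same 17.0% and 10.2%. The ligands TGFB1, BMP2 and BMP4 were at 20.01, 58.98 and 44.999 RPKM in Huh7 and 2.07, 10.1 and 4.17 in Huh1. INHBE, an inhibin subunit of liver, was at 1.24 RPKM in Huh1 and 25.5 in Huh7, and ID2, a target, at 51.1 RPKM in Huh1 and 153 in Huh7.

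Growth factor receptors and ligands were higher in Huh7 for 13 of 33 and in Huh1 for 8, against 17.0% and 10.2% of all genes. PDGFRA, a mesenchymal receptor, was at 0.00256 and 0.000677 RPKM in the Huh1 libraries and 15.3 and 15.7 RPKM in the Huh7 libraries. FGF19, a ligand that acts through FGFR4 and KLB to lower bile acid synthesis, was at 0.2098 RPKM in Huh1 and 8.21 in Huh7. Its receptor FGFR4 was at 44.3 and 55.9 RPKM and the co-receptor KLB at 3.68 and 21.9 RPKM in Huh1 and Huh7. Lists of p53 targets (4 of 23 higher in Huh7 and 2 in Huh1) and of cyclins and CDK inhibitors (4 of 21 higher in Huh7 and 1 in Huh1) had medians of 0.14 and -0.01, and of -0.13 and -0.12 under ODC1 siRNA. Over all genes compared the shares were 17.0% and 10.2%, and the p53 counts lay near them. MAP kinase feedback and immediate-early genes were higher in Huh7 for 13 of 32 and in Huh1 for 2, with a median of 0.84. The ETS factors ETV1 and ETV4 were at 12.8 and 25.7 RPKM in Huh7 and 0.125 and 1.69 in Huh1. SPRY1 and SPRY2, feedback inhibitors, were at 10.9 and 19.4 RPKM in Huh7 and 1.02 and 4.43 in Huh1. DUSP2, a MAP kinase phosphatase, was the opposite at 5.05 RPKM in Huh1 and 0.146 in Huh7.

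NF-kB targets and chemokines were higher in Huh7 for 18 of 31 and in Huh1 for 3, with medians of 1.38 under control siRNA, or 0.92 over all 37 rows, and 1.78 under ODC1 siRNA. CXCL5, a neutrophil chemokine, stood at 0.0382 and 0 RPKM in the Huh1 libraries and 107 and 162 RPKM in the Huh7 libraries. CXCL1, a related chemokine, was at 0.744 and 0.322 RPKM in the Huh1 libraries and 57.6 and 72.3 RPKM in the Huh7 libraries, and CX3CL1 at 1.096 RPKM in Huh1 and 35.04 in Huh7. CCL20 was at 22.1 and 12.7 RPKM in the Huh1 libraries and 115 and 131 RPKM in the Huh7 libraries. These 4 chemokines were higher in both Huh7 libraries than in either Huh1 library. Their direction under ODC1 siRNA was kept, as it was for all genes 2-fold apart under control siRNA. CCL15 (76.6 and 1.44 RPKM) and IL6R, the interleukin 6 receptor (22.1 and 0.5296 RPKM), were higher in Huh1, in the order Huh1 and Huh7. Interferon genes split as 6 higher in Huh7 and 7 in Huh1 of 34, against 17.0% and 10.2% of all genes compared. Their median was 0.14 under control siRNA, or 0 over all 45 rows, and -0.04 under ODC1 siRNA. The RNA sensor IFIH1 was at 9.78 RPKM in Huh1 and 0.935 in Huh7 and OAS1 at 14.6 RPKM in Huh1 and 0.394 in Huh7. MX2 and USP18 were higher in Huh7, with differences of 1.94 and 2.1. In antigen presentation 7 of 17 were higher in Huh1 and 2 in Huh7. HLA-C was at 93.7 RPKM in Huh1 and 14.1 in Huh7, though HLA alleles differ from the reference and reads may be lost or shared, and B2M was alike at 515 and 514 RPKM.

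Glycolysis genes were higher in Huh7 for 9 of 24 and in Huh1 for 2, with medians of 0.46 under control siRNA and 0.16 under ODC1 siRNA. The lactate dehydrogenase subunits were opposed. LDHB stood at 403 and 385 RPKM in the Huh1 libraries and 2.68 and 5.72 RPKM in the Huh7 libraries, and LDHA at 547 and 417 RPKM in the Huh1 libraries and 1396 and 735 RPKM in the Huh7 libraries. SLC16A3, a lactate exporter, stood at 0.0366 and 0.392 RPKM in the Huh1 libraries and 67.6 and 28.8 RPKM in the Huh7 libraries, and HK2, hexokinase 2, at 2.16 RPKM in Huh1 and 29.6 in Huh7. PFKP, the platelet phosphofructokinase, was the reverse at 68.3 and 65.7 RPKM in the Huh1 libraries and 0.586 and 0.903 RPKM in the Huh7 libraries. GAPDH was alike at 3733 and 3805 RPKM in Huh1 and Huh7. Hypoxia-inducible factor targets were higher in Huh7 for 10 of 21 and in Huh1 for 3, with a median of 0.66. Under ODC1 siRNA 6 were higher in Huh7 and 3 in Huh1, with a median of 0.21. BNIP3L, a mitophagy receptor, was at 4.21 RPKM in Huh1 and 52.9 in Huh7, and CA9 at 1.202 RPKM in Huh1 and 13.9 in Huh7. HIF1A, the factor itself, is counted in this list and was at 31.3 RPKM in Huh1 and 147 in Huh7. NDRG1 (65.4 and 7.24 RPKM) and CA12 (26.9 and 2.31 RPKM) were higher in Huh1, given as Huh1 and Huh7.

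Lipid genes varied by list. Cholesterol synthesis and uptake had 24 of 27 members under 2-fold apart, with HMGCS1, its first dedicated enzyme, highest in difference at 77.8 RPKM in Huh1 and 267 in Huh7. Fatty acid and triglyceride synthesis had a median of 0 and 23 of 28 under 2-fold apart. Members higher in Huh1 there, 4 in all, included ACSL5 (21.6 and 1.43 RPKM), ME1, malic enzyme and also an NRF2 target (101 and 22.4 RPKM), and MLXIPL, the carbohydrate response factor (7.61 and 0.3501 RPKM). In fatty acid oxidation 8 of 28 were higher in Huh1 and 4 in Huh7. OXCT1, by which cells other than hepatocytes use ketone bodies, was at 0.231 and 0.1502 RPKM in the Huh1 libraries and 12.1 and 13.6 RPKM in the Huh7 libraries. Of 22 lipid droplet and fatty acid binding genes, 9 were higher in Huh1 and 4 in Huh7, with a median of -0.74, which was -0.05 over all 30 rows and 0.15 with at least 5 RPKM required. They included CD36, a fatty acid transporter (48.1 and 38.3 RPKM in the Huh1 libraries and 0.552 and 0.2899 RPKM in the Huh7 libraries), and G0S2, a lipase inhibitor at 21.4 RPKM in Huh1 and 0 in Huh7. PLIN2, a droplet coat protein, was at 40.7 RPKM in Huh1 and 121 in Huh7.

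Metallothioneins, small proteins that bind zinc and copper, had a median of 2.77, or 1.61 over all 13 rows. Of 10 compared 8 were higher in Huh7 and none in Huh1, against 17.0% and 10.2% of all genes. All 10 reached 1 RPKM in Huh7 and 5 in Huh1, so the rest passed the filter through Huh7 alone. MT2A stood at 5.35 and 10.4 RPKM in the Huh1 libraries and 111 and 155 RPKM in the Huh7 libraries and MT1E at 5.02 and 8.801 RPKM in the Huh1 libraries and 57.2 and 94.8 RPKM in the Huh7 libraries. MT1F and MT1G reached 33.2 and 10.6 RPKM in Huh7 and were listed at 0 in Huh1, and reads of these short, similar genes may be shared. Iron genes other than ferritin included SLC40A1, the iron exporter, at 342 RPKM in Huh1 and 80.96 in Huh7, and TFR2, transferrin receptor 2, at 0.233 RPKM in Huh1 and 7.38 in Huh7. TFRC, the main receptor, was alike at 185 and 188 RPKM. Of 20 polyamine genes compared 18 were under 2-fold apart, with SMS, spermine synthase, higher in Huh7 at 54.6 and 62.4 RPKM in the Huh1 libraries and 209 and 255 RPKM in the Huh7 libraries and AGMAT higher in Huh1 at 40.8 RPKM in Huh1 and 17.5 in Huh7.

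Mitosis genes were higher in Huh7 for 10 of 32 and in Huh1 for none, with a median of 0.77, and 22 were under 2-fold apart. PTTG1, securin, was at 72.6 and 71.2 RPKM in the Huh1 libraries and 209 and 187 RPKM in the Huh7 libraries, and CDC20, an activator of the anaphase-promoting complex, at 80.96 RPKM in Huh1 and 170.2 in Huh7. Replication genes had 32 of 35 under 2-fold apart. Cell cycle inhibitors were opposed, with CDKN1A, p21, at 18.6 and 8.33 RPKM in the Huh1 libraries and 3.66 and 3.45 RPKM in the Huh7 libraries and CDKN1B, p27, at 11.6 and 13.9 RPKM in the Huh1 libraries and 49.5 and 44.2 RPKM in the Huh7 libraries. MYCN, a MYC family factor, was at 0.143 RPKM in Huh1 and 12.6 in Huh7. Among constitutive genes, 72 of 74 ribosomal proteins, 56 of 61 respiratory chain subunits and all 31 proteasome subunits were under 2-fold apart. Their medians were -0.19, -0.35 and 0.12, and that of the ribosomal proteins became 0.01 under quantile normalization.

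Some genes were present in 1 line and almost absent from the other. Among the 9280 genes that reached 5 RPKM in either line under control siRNA, 128 had under 0.1 RPKM in Huh1 (1.38%), 28 of them listed at 0. In the other direction 80 had at least 5 RPKM in Huh1 and under 0.1 RPKM in Huh7 (0.862%), 45 of them listed at 0. Under ODC1 siRNA 88 of the 128 and 63 of the 80 met the same limits. Genes of the first kind included GSTP1, IGF2, CXCL5, GJA1, EFEMP1, FBLN1 and CLDN6. Those of the second included CES1, MSN and CPLX2, a synaptic complexin at 195 and 219 RPKM in the Huh1 libraries and 0.05204 and 0.104 RPKM in the Huh7 libraries. SRGN, a proteoglycan of blood cell granules, was at 91.99 and 69.1 RPKM in the Huh1 libraries and 0 and 0.234 in those of Huh7. All 20 of the largest differences in favour of Huh7, and all 20 in favour of Huh1, were at least 4-fold in the same direction under ODC1 siRNA. Others among the 20 for Huh1 were VNN1, a pantetheinase (149.9 RPKM in Huh1 and 0.224 in Huh7), TRIM16L, a copy of TRIM16 whose reads it may share (295 RPKM in Huh1 and 1.84 in Huh7), and VSIG1 (116 RPKM in Huh1 and 0.3496 in Huh7). Others among the 20 for Huh7 were COCH, cochlin (113 RPKM in Huh7 and 0.292 in Huh1), FSTL1, a follistatin-like protein (68.2 RPKM in Huh7 and 0.0671 in Huh1), LEPREL1, a collagen prolyl hydroxylase (56 RPKM in Huh7 and 0.324 in Huh1), NTS, neurotensin (75.2 RPKM in Huh7 and 0.9196 in Huh1), and C8orf4 (71.2 RPKM in Huh7 and 0.394 in Huh1).

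Differences were not spread evenly over the genome. Genes were placed on chromosomes by RefSeq transcript (17945 rows) or symbol (260), with 193 unplaced. Chromosome 22 stood apart: its 283 genes compared had a median difference of 1.02, 248 of them (87.6%) were above 0 and 143 (50.5%) were at least 2-fold higher in Huh7. Under ODC1 siRNA its median was 1.00, and over the 162 genes with at least 5 RPKM in both lines 0.94. Chromosome 13 followed with a median of 0.53 and 162 of 196 genes (82.7%) above 0, then chromosomes 4 (0.43), 14 (0.37) and 21 (0.37). The lowest median, on chromosome 10, was -0.06. These medians kept chromosome 22 first under each scaling tried, from 0.90 with quantile normalization to 1.01 after rescaling without the 100 most abundant genes. The X chromosome had a median of -0.04 with 98 of 398 genes (24.6%) higher in Huh7 and 91 (22.9%) higher in Huh1.

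**Figure D4:**
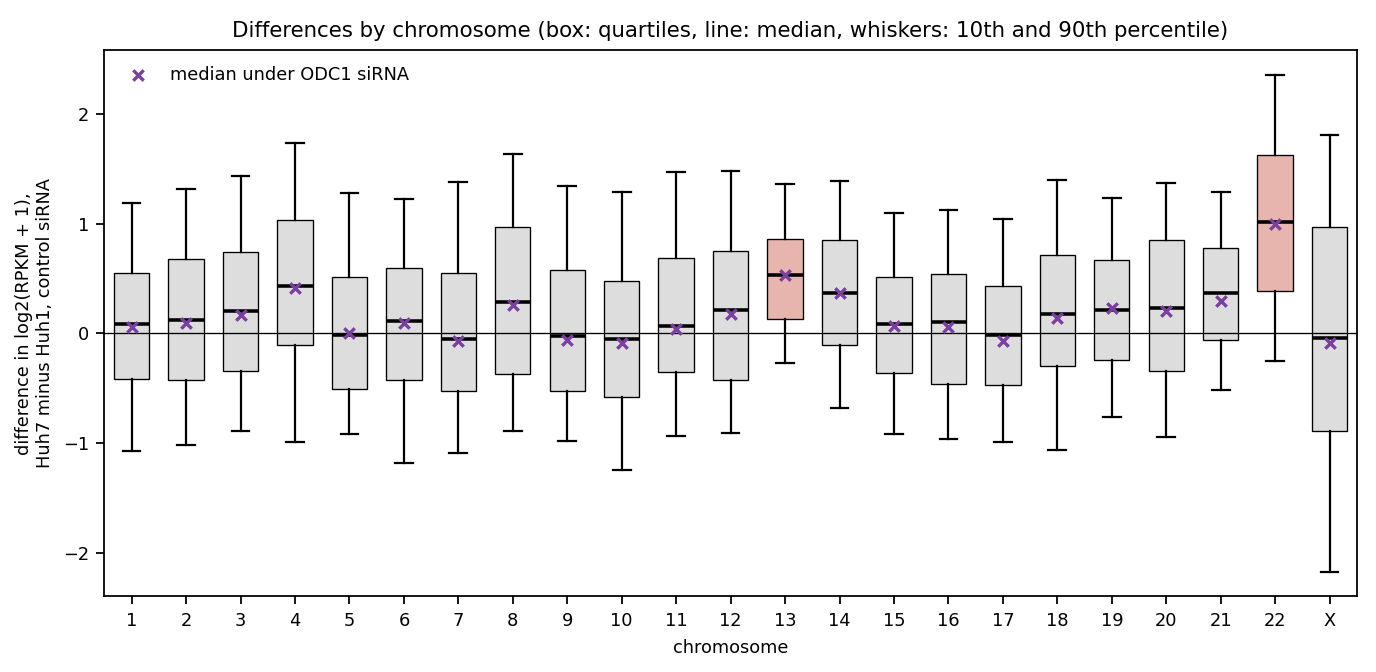
Boxes show the differences in log2(RPKM + 1), Huh7 minus Huh1 under control siRNA, for the genes compared on each chromosome, and purple crosses the medians under ODC1 siRNA; shaded boxes have medians of at least 0.5. Chromosome 22 lies above the others with a median of 1.02, chromosome 13 has a median of 0.53, and the X chromosome has a median of -0.04 with a wide spread.

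Within chromosomes the differences were read as medians over stretches of 41 neighbouring genes, a width chosen after the data were seen. The highest and the lowest stretch of each chromosome were taken, so every chromosome gives both, and clustering was not tested. The highest was on chromosome 22, from TMEM191B through DGCR8 to PPIL2, with a median of 2.25, where 37 of 41 genes were at least 2-fold higher in Huh7. The next were on chromosome 8, from TNFRSF10B to WRN (1.64, 31 genes), and on X, from GYG2 to CXorf23 (1.41, 32 genes). Stretches of chromosomes 11, from B3GNT1 to C11orf24, and 4, from CNO to TBC1D19, had medians of 1.32 and 1.29. The lowest were on chromosome 2, from IDH1 to ABCB6 (-1.02, 21 genes higher in Huh1), and on X, from OGT to GLA (-1.01, 21 genes). Under ODC1 siRNA the medians of the chromosome 22, 8 and first X stretches were 2.09, 1.47 and 1.28, and those of the lowest 2 were -1.02 each.

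Runs of at least 4 neighbouring expressed genes with under 0.5 RPKM in 1 control library, limits also chosen after the data were seen, numbered 6, of which 4 lay on X. In the longest, GYG2, ARSD, ARSE, PRKX, HDHD1, STS and PNPLA4 were at or under 0.454 RPKM in Huh1 and between 4.099 and 55.6 RPKM in Huh7. GYG2 makes the primer of glycogen in liver, HDHD1 is a pseudouridine phosphatase and STS, steroid sulfatase, frees steroids from their sulfates. HDHD1 stood at 0.0349 and 0.0104 RPKM in the Huh1 libraries and 55.6 and 54.02 RPKM in the Huh7 libraries, GYG2 at 0.04401 and 0.2099 RPKM in the Huh1 libraries and 40.4 and 34.7 RPKM in the Huh7 libraries and STS at 0.0193 and 0.001397 RPKM in the Huh1 libraries and 9.46 and 11.5 RPKM in the Huh7 libraries. All 13 rows of the span were under 0.5 RPKM in Huh1, but those between the 7 genes were also low in Huh7, at most 0.692 RPKM. Under ODC1 siRNA 6 of the 7 genes were under 0.5 RPKM in Huh1, PNPLA4 being at 0.705 RPKM. The next expressed gene, TBL1X, was at 11.5 RPKM in Huh1 and 29.7 in Huh7.

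The opposite run lay elsewhere on X, where ITM2A, BRWD3, HMGN5 and SH3BGRL were at 12.9, 3.06, 25.5 and 23.7 RPKM in Huh1 and at most 0.0199 RPKM in Huh7. ITM2A and HMGN5, a nucleosome-binding protein, were listed at 0 in both Huh7 libraries. The expressed gene before them, TAF9B, was at 15.1 RPKM in Huh1 and 17.3 in Huh7. Beyond them APOOL was at 9.68 RPKM in Huh1 and 0.543 in Huh7. ZNF711 and POF1B, which lie further on and are named here because they follow the run, were at 9.36 and 17.6 RPKM in Huh1 and 0 and 0.0104 in Huh7. The other X runs low in Huh7 were GAGE12J, GAGE13, GAGE1 and PAGE1, and GABRA3, MAGEA3, CSAG1, MAGEA12 and MAGEA6. The first of these was led by GAGE13 at 15.9 RPKM in Huh1 and 0 in Huh7. In the second, CSAG1 was at 57.1 RPKM in Huh1 and 0.0937 in Huh7. MAGEA3 and MAGEA6 are near-identical copies and the GAGE genes a family of similar ones, so their single values are uncertain.

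**Figure D5:**
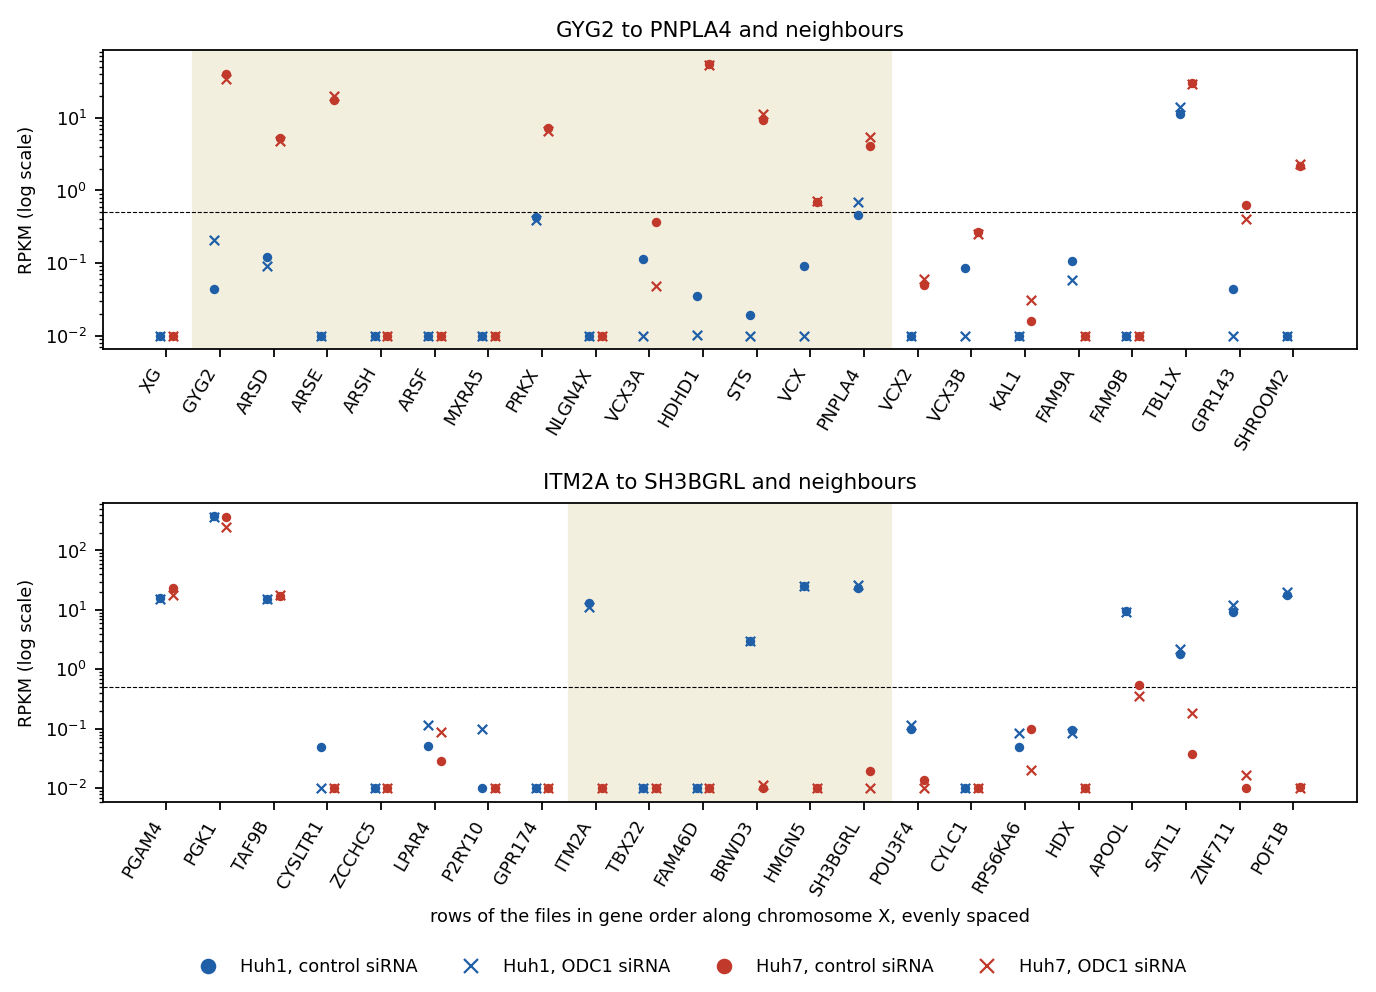
Rows of the files in gene order along chromosome X are drawn evenly spaced, with RPKM on a log scale, values under 0.01 RPKM at 0.01, blue for Huh1, red for Huh7, dots for control and crosses for ODC1 siRNA; the shaded bands are the runs and the dashed line is 0.5 RPKM. In the upper panel the blue marks of GYG2 to PNPLA4 lie low while red ones reach 55.6 RPKM, and in the lower panel the red marks of ITM2A to SH3BGRL lie at or below 0.02 RPKM.

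The runs outside X were both low in Huh1. On chromosome 12, HOXC8, HOXC6, HOXC4 and HOXC5 were at 3.62, 4.93, 3.35 and 1.22 RPKM in Huh7 and at most 0.449 RPKM in Huh1, between HOXC9 (0.727 and 3.94 RPKM in Huh1 and Huh7) and SMUG1 (10.8 and 12.6 RPKM). On chromosome 5, the clustered protocadherins PCDHB8, PCDHB16, PCDHB13 and PCDHB14, adhesion proteins of neurons, were at 2.49, 3.28, 3.99 and 2.31 RPKM in Huh7. They were at most 0.272 RPKM in Huh1, next to TAF7 (50.8 and 43.6 RPKM). All 8 of these genes were also under 0.5 RPKM in Huh1 under ODC1 siRNA. Whether the stretches and runs account for any of the differences listed above was not tested.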

How the data were processed

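Per the labels' protocols, Trizol-extracted total RNA went into Illumina TruSeq libraries. The submitters' processing notes name CASAVA 1.8.2, TopHat2 2.0.9 and hg19. How reads were counted, on which annotation and whether by strand is not given in the sources used here; antisense overlaps cannot be separated. The authors deposited 1 RPKM value per RefSeq transcript and library, without header or unit. The unit rests on the values: low values times the GENCODE release 29 transcript length fall on multiples of 1 constant per library (251 to 273 values in the densest window), which also gave the read totals. Other values are fractions of a read, so no count model was used. Read totals were sought only within a set range, so they and the read numbers derived from them are estimates.

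The members and the 55 gene lists were chosen with earlier results of these data known. Of 1592 different list members, 59 were not analysed here. Differences of log2(RPKM + 1) were computed with Python 3.11.15, pandas 2.3.3, numpy 2.4.6 and scipy 1.17.1, and drawn with matplotlib 3.10.9. A run on simulated data planted large changes in well expressed genes only. It checks the computation and not the 2-fold calls at low levels. The rule for named genes took ODC1, the 20 largest differences each way where the higher library had 5 RPKM or more, the 10 highest levels per control library, up to 6 largest differences and 3 highest levels per list, all cell type markers, neighbour runs and near-identical copies, of which a selection is given. The 41-gene window, its end genes, the limits of neighbour runs, the promoter words and the CG counts were chosen after the values were seen. Y-linked genes are not reported, and some genes are not reported here. Promoters (14597 rows matched) and gene order come from RefSeq tables on GRCh38.p14, not the build of the files.

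Alternatives were a pseudocount of 0.1, all rows, at least 5 RPKM, quantile normalization, upper quartile scaling, rescaling without the 100 most abundant genes, rules of 1.5-fold and 4-fold, other limits for absence, and the ODC1 siRNA libraries.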

Additional observations from a re-analysis of the deposited data

How the results depend on the processing

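The count of genes at least 2-fold apart was within 1.5 times its value of 3239 under each alternative except the other rules of size. Taking all rows could not change it, since with 1 added a gene under 1 RPKM in both libraries cannot be 2-fold apart. A 1.5-fold rule gave 5676 genes (3460 higher in Huh7 and 2216 in Huh1), and a 4-fold rule 1046 (624 and 422). The 208 genes present in 1 line and under 0.1 RPKM in the other became 380 with a limit of 0.5 RPKM and 73 when listed at 0. Quantile normalization moved the median of all genes from 0.14 to 0 and the share of calls higher in Huh7 from 62.6% to 52.2%. Other settings left that share between 57.8% and 62.8%. All 161 chromosome medians recomputed under alternatives moved by less than 1.5-fold. Of 385 recomputed list medians 38 moved by more, mostly with a pseudocount of 0.1 or without a filter. Of 55 lists, 6 changed sign under at least 1 setting, among them 2 with a median beyond 0.5. Lipid droplet genes went from -0.74 to 0.15, and carbonic anhydrases from 0.63 to -3.08, with at least 5 RPKM required. Gluconeogenesis and glycogen genes went from 0.25 to -0.16 under ODC1 siRNA. Of 3090 recomputed differences of named genes 232 moved by more than 1.5-fold, and none at least 2-fold apart changed sign. A level of 1 RPKM on a transcript of 2 kb rests on about 27 reads in Huh1 and 24 in Huh7, a counting error of 19.3% and 20.3%. No paired analysis was possible because each combination of line and siRNA is 1 library and the labels carry no replicate numbers.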
